A study of Rattus norvegicus with 71 samples.

Results

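The lungs described here came from rats of 3 inbred strains, Brown Norway, Fisher and Lewis, taken on postnatal day 1 (PN1) after ovalbumin exposure in utero. They are the 12 arrays, 4 per strain, that the sample labels give as PN1 and ovalbumin-exposed, out of 71 arrays in the series. The full series covered the same 3 strains at postnatal days 1, 7 and 14 after either ovalbumin or saline exposure in utero, mostly with 4 arrays per group, and asked how allergen exposure before birth bears on lung development in strains of unequal asthma susceptibility. Total RNA of whole lung was hybridised to Illumina rat bead arrays of 22523 probes. Of these, 12270 were detected (detection p-value under 0.01) on 3 or more of the 12 arrays and were tested, and 8892 of the tested probes carry the symbol of exactly 1 gene. The groups are Brown Norway PN1 ovalbumin, Fisher PN1 ovalbumin and Lewis PN1 ovalbumin, each with replicates a to d, and the PN1 saline arrays of the same strains (12 arrays) serve as their controls. The labels name neither litter, dam nor sex of the pups, nor which strain was the more susceptible, so p-values measure only the spread between arrays. That spread was pooled within the 18 groups of all 71 arrays, and is not that of the 12 arrays alone. In whole lung, more cells of a type and more RNA per cell cannot be told apart.

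Ovalbumin, a protein of egg white, is the usual model allergen of rodent asthma work. The newborn rat lung is in its saccular stage, before alveoli form, and holds dividing mesenchyme, surfactant-making type 2 cells, ciliated and secretory airway cells, a large capillary endothelium and few lymphocytes. Inbred strains differ in many genes by inheritance, among them the rat major histocompatibility complex RT1, whose class I molecules show peptides to T cells and are highly variable between strains, and the Mup urinary proteins, small carriers of odorants made in several glands.

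Values are log2 signal after background correction and quantile normalization, and a difference of 1 is a 2-fold difference. Between 10934 and 11914 probes were detected per array, and correlations between any 2 of the 12 arrays ran between 0.952 and 0.994. The surfactant gene Sftpc and the club cell gene Scgb1a1, defining markers of lung epithelium, were detected on all 12 arrays. Arrays fell apart by strain, with Fisher separate on the first principal component (26.9% of the variance) and Brown Norway opposite Lewis on the second (24.4%). Fisher a and Lewis a lay farthest from their group means, with root mean square deviations of 0.371 and 0.337 against 0.175 to 0.277 for the other 10 arrays. Lewis a also carried T cell transcripts: the 12 tested genes of the T and NK cell list averaged 9.98 on Lewis a, against 5.82 to 6.30 on the other Lewis arrays, 6.21 to 6.80 in Brown Norway and 6.24 to 6.70 in Fisher. Rag1, which recombines antigen receptor genes in developing lymphocytes, read 12.12 on Lewis a and at most 6.11 on any other of the 12 arrays. Dntt, the terminal transferase of thymocytes, was detected on Lewis a alone, at 8.62. Replicates a and b of each strain shared 1 slide. Replicates c and d of Fisher and Brown Norway and d of Lewis shared another, and Lewis c was on a slide of its own among the 12.

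**Figure D1:**
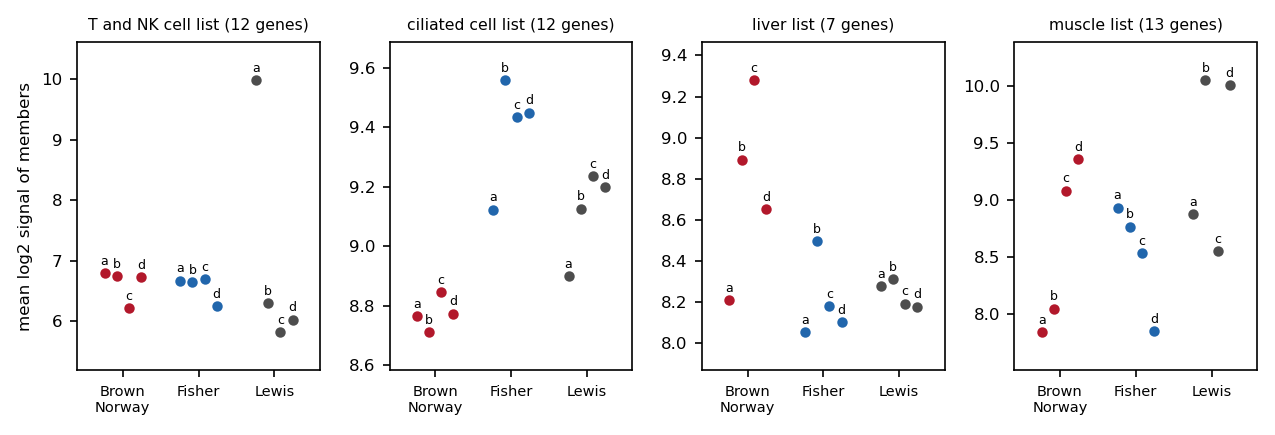
Mean log2 signal (vertical axis) of 4 marker lists on each of the 12 PN1 ovalbumin arrays, 1 point per array, lettered by replicate. Lewis a stands at 9.98 in the T and NK cell panel while the other 11 arrays stand at 6.80 or lower, and all 4 Fisher arrays lie above all 4 Brown Norway arrays in the ciliated cell panel.

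The strains differed at 2222 of the 12270 probes (18.1%) in an F test over the 3 groups (limma, Benjamini-Hochberg adjusted p under 0.05, the threshold for every call below). Between Brown Norway and Lewis, 1007 probes (8.21%) were called, 560 higher (4.56%) and 447 lower (3.64%) in Brown Norway. Fisher against Lewis gave 1497 (12.2%), 830 higher (6.76%) and 667 lower (5.44%) in Fisher. Brown Norway against Fisher gave 1385 (11.3%), 655 higher (5.34%) and 730 lower (5.95%) in Brown Norway. Differences of 4-fold or more (2 or more on the log2 scale) made up 83 probes between Brown Norway and Lewis, 56 between Fisher and Lewis and 68 between Brown Norway and Fisher. In 926 of the 1007 probes called between Brown Norway and Lewis the 4 arrays of one strain lay wholly above the 4 of the other, against 18.9% of all probes tested. The same held for 1185 of the 1497 probes between Fisher and Lewis (16.8% of all probes) and for 1204 of the 1385 between Brown Norway and Fisher (17.98% of all). Some probes set 1 strain apart from both others: Brown Norway was the higher strain at 1.65% of probes and the lower at 1.56%, Fisher the higher at 2.09% and the lower at 1.74%, and Lewis the higher at 0.986% and the lower at 1.51%. A further 78 probes differed between all 3 strains in a graded order, and 974 had none of these patterns. With slide as a fixed term the 3 pairs gave 1070, 1944 and 1588 calls in the order above. The 6 arrays of the slide that held replicates a and b gave 442, 1248 and 1141 in that order, and the 5 arrays of the slide that held 2 Brown Norway, 2 Fisher and 1 Lewis array gave 273, 234 and 530. Whether each probe binds the transcripts of the 3 strains equally well was not tested, so a strain difference is one of probe signal.

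Class I genes of RT1, and some chemokine and endothelial genes, were higher in Brown Norway lungs than in Lewis lungs, while all tested urinary protein genes were lower. Macrophage genes were called in both directions. RT1-CE16, a class I heavy chain gene, read 10.80, 10.87, 10.66 and 10.84 on the 4 Brown Norway arrays, 8.31, 8.10, 7.78 and 7.75 on the Fisher arrays and 4.75, 4.73, 4.82 and 4.57 on the Lewis arrays, where it was not above background on any. The 3 strains did not overlap, and the signal was at least 35.1-fold higher in Brown Norway than in Lewis (adjusted p = 2.08e-38) and at least 5.01-fold higher in Fisher than in Lewis (adjusted p = 1.12e-24). RT1-A2, a classical class I gene, stood at 9.40, 9.93, 8.98 and 9.53 in Brown Norway, against 6.71, 5.01, 5.13 and 4.87 in Fisher and 4.89, 4.91, 5.20 and 5.04 in Lewis. It was detected on all Brown Norway arrays, on Fisher a alone among the Fisher arrays and on no Lewis array, and was at least 13.9-fold higher in Brown Norway than in Lewis (adjusted p = 1.26e-23). RT1-A3 took another order, with 11.66, 11.77, 11.55 and 11.66 in Brown Norway and 12.29, 11.78, 11.35 and 11.32 in Fisher, against 9.82, 8.74, 8.68 and 8.76 in Lewis. Here Lewis was the strain apart: the difference was 2.66 ± 0.19 (SE) for Brown Norway minus Lewis and 2.68 ± 0.19 for Fisher minus Lewis, while Brown Norway and Fisher overlapped (adjusted p = 0.953). Of the 18 class I list members tested, 9 were higher and none lower in Brown Norway than in Lewis (4.56% of all probes were called higher), with a median difference of 0.61 against 0.01 over all probes. Tap1, which pumps peptides to class I molecules, was among them at 0.85. Fisher against Lewis gave 4 higher and 1 lower (6.76% and 5.44% of all probes), and Brown Norway against Fisher 10 higher and 1 lower (5.34% and 5.95%). RT1-CE5, below background on every Fisher array, was the member lower in Fisher than in Lewis (at least 2.01-fold) and RT1-S2 the one lower in Brown Norway than in Fisher (-1.5 ± 0.26). RT1-S2 was above background on 1 Brown Norway array, so its fitted difference has no exact size. The RT1 genes are near-identical copies that vary in sequence and number between strains, so which copy each probe measured is uncertain.

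Class II molecules show peptides to helper T cells, and 1 of their genes set Brown Norway apart. RT1-Ba, a class II alpha chain, read 11.46, 11.71, 11.16 and 11.57 in Brown Norway, against 9.41, 9.36, 8.72 and 8.49 in Fisher and 10.31, 9.35, 8.20 and 8.80 in Lewis. All Brown Norway arrays lay above all others, by 2.48 ± 0.24 (adjusted p = 8.78e-13) over Fisher and 2.31 ± 0.24 (adjusted p = 1.09e-11) over Lewis. The other 5 tested class II genes did not share this: RT1-Db1 (-0.78) and RT1-DMb (-0.48) were lower in Brown Norway than in Lewis, and none of the 6 was called between Fisher and Lewis. A single left-out array ended one of these calls: RT1-Db1 without Brown Norway a, c or d or Lewis a or b (-0.48 where the adjusted p was highest, at 0.341).

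**Figure D2:**
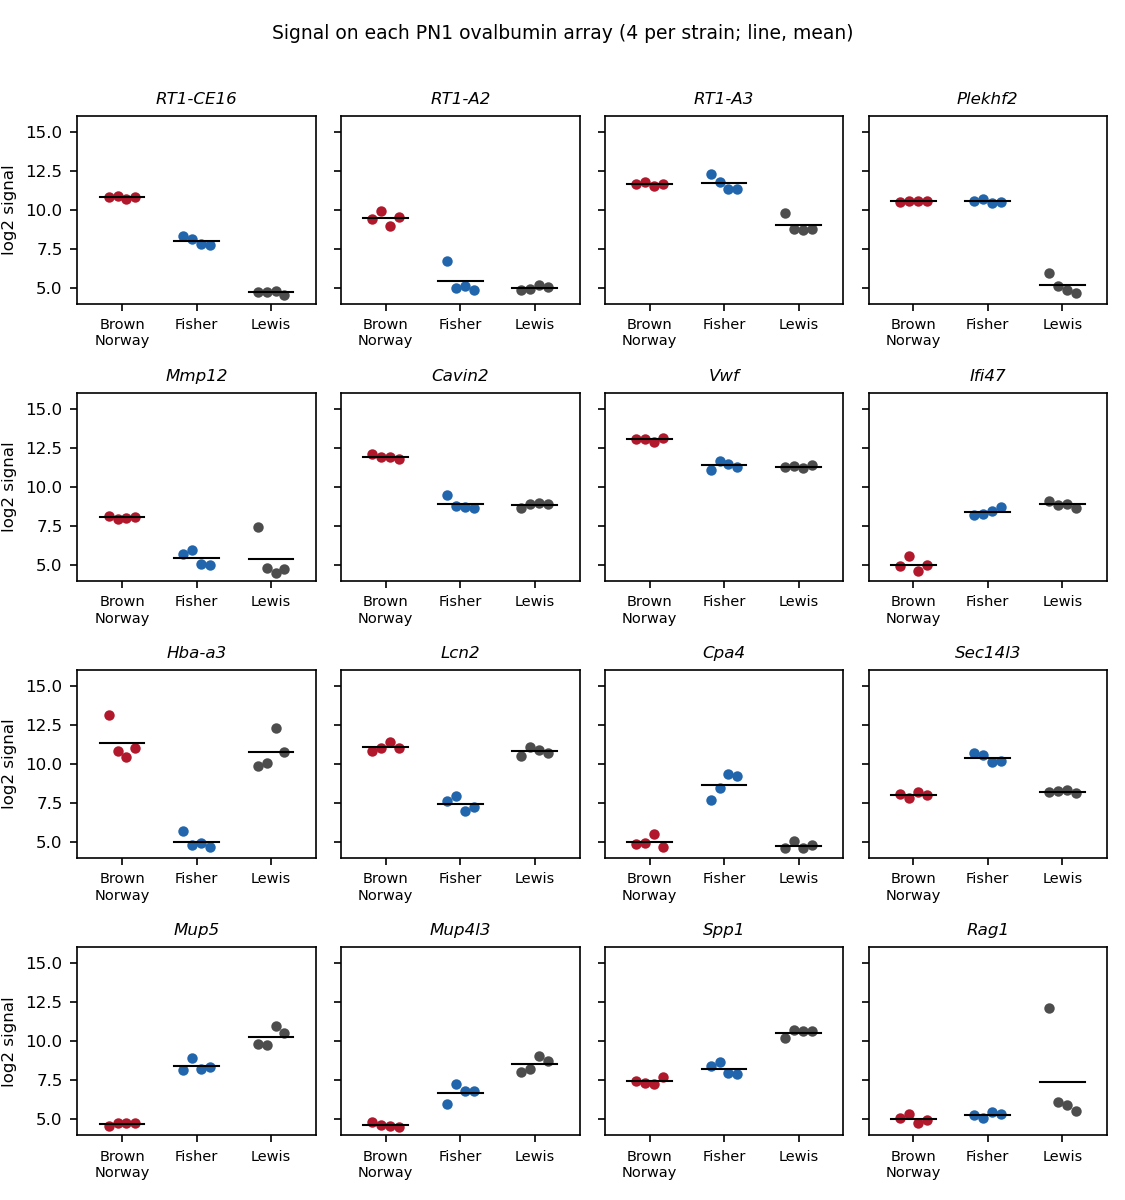
Log2 signal (vertical axis) of 16 genes on each of the 12 PN1 ovalbumin arrays, in columns for Brown Norway, Fisher and Lewis, with a point per array and a line at the strain mean. RT1-CE16, Mup5 and Mup4l3 separate all 3 strains, Plekhf2 and RT1-A3 are low in Lewis only, Hba-a3 and Lcn2 are low in Fisher only, and Rag1 is high on a single Lewis array.

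Among genes of other function high in Brown Norway was Ly6i, a small surface protein of the Ly6 family. Its 4 arrays there read 11.28, 11.08, 11.28 and 11.27, against 7.62, 7.34, 7.61 and 7.56 in Fisher and 6.35, 6.80, 6.54 and 6.54 in Lewis, with no overlap between strains. The difference was 4.67 ± 0.23 from Lewis (adjusted p = 1.38e-25) and 3.70 ± 0.23 from Fisher (adjusted p = 8.81e-21). Cavin2, a coat protein of the caveolae that are abundant in lung capillary cells, stood at 12.11, 11.95, 11.90 and 11.79 in Brown Norway, 9.49, 8.79, 8.72 and 8.66 in Fisher and 8.66, 8.88, 8.96 and 8.89 in Lewis. Brown Norway lay above both strains, by 3.02 ± 0.15 over Fisher and 3.09 ± 0.15 over Lewis. Vwf, the von Willebrand factor made by endothelium, also set Brown Norway apart, at 13.07, 13.08, 12.86 and 13.15 against 11.07, 11.68, 11.46 and 11.31 in Fisher and 11.27, 11.37, 11.19 and 11.41 in Lewis. It exceeded Fisher by 1.66 ± 0.19 (adjusted p = 3.29e-10) and Lewis by 1.73 ± 0.19 (adjusted p = 8.84e-11). Of 12 endothelial list members tested, 3 were higher and none lower in Brown Norway than in Lewis, the others being the peptide ligand Apln (1.22) and the tight junction protein Cldn5 (0.37), with a median difference of 0.18. Of all probes, 4.56% were called higher and 3.64% lower, and 8 of the 12 members had a positive difference. Further genes high in Brown Norway alone were Ankra2 (at least 17.8-fold over Lewis, where no array detected it), the peroxisomal membrane protein Pxmp4 (4.06 from Lewis, 3.67 from Fisher) and Raet1l, a stress ligand of natural killer cells (2.67 from Lewis, 2.94 from Fisher).

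Macrophage genes split in direction. Mmp12, the macrophage elastase, read 8.16, 7.97, 8.01 and 8.06 in Brown Norway, 5.74, 5.97, 5.09 and 5.04 in Fisher and 7.46, 4.84, 4.52 and 4.78 in Lewis. It was detected on 4 Brown Norway, 2 Fisher and 1 Lewis array, that being Lewis a. Brown Norway exceeded Lewis by 2.65 ± 0.32 (adjusted p = 2.08e-09) and Fisher by 2.59 ± 0.32 (adjusted p = 3.76e-09); without Lewis a the difference from Lewis was 3.34. Spp1, osteopontin, ran the other way, with 7.44, 7.33, 7.27 and 7.72 in Brown Norway and 8.43, 8.64, 7.95 and 7.89 in Fisher, against 10.23, 10.69, 10.67 and 10.63 in Lewis. Every Lewis array lay above every other, with a difference of -3.11 ± 0.39 for Brown Norway minus Lewis and -2.33 ± 0.39 for Fisher minus Lewis. Of the 15 macrophage list members tested, 2 were higher and 4 lower in Brown Norway than in Lewis, where 4.56% and 3.64% of all probes were. The lower ones were Spp1, the galectin Lgals5 (-1.68), the haemoglobin scavenger receptor Cd163 (-1.11) and the mannose receptor Mrc1 (-0.53). Cd163 was above background on 1 Brown Norway array, so its fitted difference has no exact size. The second higher member was Alox15 (2.01 ± 0.53), a lipoxygenase of macrophages and eosinophils. Single left-out arrays ended some of these calls: Alox15 without Brown Norway a (1.54, adjusted p = 0.0859) and Lgals5 without Brown Norway c or Lewis c (-1.40 where the adjusted p was highest, at 0.0673).

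Of 26 chemokine and cytokine list members, 6 were called higher and 1 lower in Brown Norway than in Lewis, where 4.56% and 3.64% of all probes were. Against Fisher the counts were also 6 and 1, where 5.34% and 5.95% of all probes were called, and in each pair 19 were not called. Ccl3, a chemokine that draws macrophages and lymphocytes, read 7.72, 7.68, 7.57 and 7.86 in Brown Norway, 6.99, 6.26, 6.07 and 6.28 in Fisher and 6.22, 6.11, 6.21 and 5.77 in Lewis, with all Brown Norway arrays above the rest (difference from Lewis 1.63 ± 0.27, adjusted p = 7.42e-06). The monocyte chemokine Ccl12 stood at 7.66, 7.41, 6.66 and 6.92 in Brown Norway, 5.40, 5.15, 5.73 and 5.38 in Fisher and 6.09, 6.05, 5.54 and 5.48 in Lewis. It was detected on 4 Brown Norway, 1 Fisher and 2 Lewis arrays, and Brown Norway exceeded Fisher by 1.74 ± 0.34 (adjusted p = 0.00014) and Lewis by 1.37 ± 0.34 (adjusted p = 0.00432). Ccl5, a T cell chemokine, was instead low in Lewis, with differences of 1.06 ± 0.23 for Brown Norway minus Lewis and 1.58 ± 0.23 for Fisher minus Lewis. The alarm cytokine Il1a followed it (1.33 and 1.61 in the same order), and the neutrophil chemokine Cxcl1 was higher in Brown Norway than in Lewis (1.25). Of 11 neutrophil genes, the proteinase Prtn3 was the only one called in any pair, lower in Brown Norway than in Fisher (-0.64). Of 13 mast cell and eosinophil genes tested, 3 were higher and 2 lower in Brown Norway than in Lewis (4.56% and 3.64% of all probes). The list's median difference was -0.24. The eosinophil granule genes Prg2 (1.60) and Epx (at least 1.03-fold) were among the higher. The lower ones were the mast cell tryptase Tpsb2 (at least 1.8-fold, with no Brown Norway array above background) and the mast cell growth factor receptor Kit (-0.90). Epx lay near background, above it on 2 Brown Norway arrays, 1 Fisher array and no Lewis array. Single left-out arrays ended 4 of these calls: Cxcl1 without Brown Norway b or c or Lewis c (1.15 where the adjusted p was highest, at 0.061), Epx without Brown Norway d or Lewis d (0.62 where the adjusted p was highest, at 0.0793), Kit without Brown Norway c or Lewis d (-0.82 where the adjusted p was highest, at 0.0572) and Prtn3 without Brown Norway d or Fisher b, c or d (-0.55 where the adjusted p was highest, at 0.0647). Blnk, an adaptor of B cell receptor signalling, read 7.19, 7.14, 6.57 and 7.33 in Brown Norway, 5.25, 5.01, 4.55 and 5.43 in Fisher and 6.32, 4.77, 4.75 and 5.0 in Lewis. It was above background on no Fisher array and on Lewis a only, and was at least 2.76-fold higher in Brown Norway than in Fisher (adjusted p = 1.47e-10). T and NK cell genes gave no call between Brown Norway and Lewis among 12 tested, with Lewis a at the level given above.

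Among the genes lowest in Brown Norway were those of the urinary and odorant-binding proteins. Mup5 was not above background on any Brown Norway array (4.60, 4.77, 4.79 and 4.76), and read 8.16, 8.96, 8.23 and 8.37 in Fisher and 9.80, 9.74, 10.99 and 10.51 in Lewis. The strains did not overlap, and the signal was at least 23.3-fold lower in Brown Norway than in Lewis (adjusted p = 3.73e-17) and at least 6.57-fold lower than in Fisher (adjusted p = 1.31e-10). All 5 list members tested, Mup5, Mup4, Mup4l3, Mup4l4 and Obp3, were lower in Brown Norway than in Fisher and Lewis and lower in Fisher than in Lewis. None was above background on any Brown Norway array, so only bounds can be given there: against Lewis they lay between at least 3.62-fold (Obp3) and at least 23.3-fold lower (Mup5). Against Fisher they lay between at least 1.99-fold (Mup4l3) and at least 6.57-fold lower (Mup5), and Obp3, above background on Fisher b alone, had none. The median fitted difference for Fisher minus Lewis was -1.80, against 0.01 over all probes. These genes are near-identical copies of 1 family, so the 5 probes may partly measure the same transcripts and do not count as 5 independent results.

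Single genes low in Brown Norway followed. Echdc2, an enoyl-CoA hydratase-like protein, was not above background in Brown Norway (4.53, 4.54, 4.65 and 4.63), against 9.50, 9.96, 9.72 and 9.82 in Fisher and 9.58, 9.96, 9.95 and 10.07 in Lewis. The signal was at least 16.4-fold lower than in Fisher and at least 18.1-fold lower than in Lewis, which overlapped each other. Ifi47, an interferon-induced GTPase, was likewise below background on the Brown Norway arrays (4.97, 5.56, 4.60 and 4.99) and read 8.18, 8.29, 8.44 and 8.71 in Fisher and 9.12, 8.86, 8.92 and 8.64 in Lewis. It was at least 6.46-fold lower in Brown Norway than in Fisher (adjusted p = 4.64e-25) and at least 9-fold lower than in Lewis (adjusted p = 6.38e-28). Most interferon-induced genes did not follow it: of 18 tested, 2 were lower and 1 higher in Brown Norway than in Lewis (3.64% and 4.56% of all probes). Another 5.95% and 5.34% of all probes were called lower and higher than in Fisher, where 3 members were lower and 3 higher, with Ifi44 (-1.71) on the lower side and the immunoproteasome subunit Psmb8 (1.46) and the factor Irf1 (0.67) on the higher. The last call ended with single left-out arrays: Irf1 without Brown Norway b or Fisher a (0.49 where the adjusted p was highest, at 0.0974). The beta globin Hbb-b1 averaged 11.39 ± 1.13 in Brown Norway, 13.66 ± 0.78 in Fisher and 14.83 ± 0.59 in Lewis (SD, n = 4 each), with Brown Norway a at 13.06 and its other arrays at 11.05 or lower. The difference was -3.44 ± 0.41 from Lewis (adjusted p = 9.19e-10), and no other of the 13 erythroid list members was called between Brown Norway and Lewis.

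Single genes of unlike function, such as a globin, an endosome protein and the enzyme of polyamine synthesis, were low or below background in Fisher. Sterol synthesis, hypoxia and surfactant genes included members that were higher in Fisher. Hba-a3, an alpha globin, read 13.14, 10.84, 10.47 and 11.01 in Brown Norway and 5.71, 4.81, 4.94 and 4.70 in Fisher, against 9.85, 10.07, 12.32 and 10.74 in Lewis. Fisher a alone among the Fisher arrays was above background, and the fitted difference, which has no exact size with 3 Fisher arrays below background, was -5.71 ± 0.52 from Lewis (adjusted p = 1.32e-13) while Brown Norway and Lewis overlapped. Washc3, a subunit of the WASH complex that sorts endosomes, stood at 5.98, 5.87, 6.18 and 6.88 in Fisher against 11.56, 11.42, 11.73 and 11.63 in Lewis (-5.36 ± 0.18, adjusted p = 2.04e-34). Ornithine decarboxylase Odc1, the first enzyme of polyamine synthesis, was below background on every Fisher array and at least 13.4-fold lower than in Lewis (adjusted p = 9.69e-31). The actin-linked adaptor Sorbs2 was below background there as well, at least 9.49-fold lower than in Lewis (adjusted p = 5.68e-31).

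Of 10 club and airway secretory genes, 2 were lower and 1, Agr2, higher in Fisher than in Lewis, with a median difference of 0.12. Of all probes, 5.44% were called lower and 6.76% higher. The Agr2 call ended without any 1 of 6 arrays: Agr2 without Fisher a, b or c or Lewis a, b or d (0.39 where the adjusted p was highest, at 0.149). Lcn2, lipocalin 2, which binds bacterial siderophores, averaged 11.07 ± 0.26 (SD, n = 4) in Brown Norway and read 7.62, 7.93, 7.03 and 7.26 in Fisher, against 10.54, 11.10, 10.92 and 10.71 in Lewis. Fisher lay wholly below both, with a difference of -3.36 ± 0.46 from Lewis (adjusted p = 8.72e-08). Scgb3a2, a secretoglobin of club cells, read 13.53, 13.30, 13.18 and 13.18 in Fisher against 14.56, 14.71, 14.72 and 14.57 in Lewis, a difference of -1.34 ± 0.11 (adjusted p = 2.4e-15) with no overlap. The club cell marker Scgb1a1 was not called between Fisher and Lewis (-0.18, adjusted p = 0.0894). Other genes lower in Fisher were the carboxylesterase Ces1e (-4.70), the organic anion transporter Slco1a5 (-3.05), the lysosomal channel Tpcn2 (-2.99) and ankyrin Ank1 of the red cell membrane (-2.34). Ces1e was above background on 1 Fisher array, so its fitted difference has no exact size.

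Higher in Fisher than in Lewis was Nos3, the endothelial nitric oxide synthase, which read 7.55, 7.49, 7.69 and 7.52 in Brown Norway and 9.45, 9.60, 9.35 and 9.10 in Fisher, against 7.47, 7.34, 7.38 and 7.30 in Lewis. Fisher lay above both, by 2.0 ± 0.21 over Lewis (adjusted p = 2.49e-11). Esm1, secreted by endothelial tip cells, was higher in Fisher than in Lewis by 1.79 ± 0.43 (adjusted p = 0.00248). The endothelial list had 3 higher members of 12, with Apln (0.69) and Emcn (0.43), and none lower, where 6.76% and 5.44% of all probes were. Single left-out arrays ended these calls: Apln without Fisher a, b or c or Lewis a or c (0.58 where the adjusted p was highest, at 0.132) and Emcn without Fisher b, c or d or Lewis a or d (0.38 where the adjusted p was highest, at 0.09). Timp1, an inhibitor of metalloproteinases, stood at 11.91, 12.16, 12.43 and 12.42 in Fisher against 10.38, 10.63, 10.67 and 10.62 in Lewis, 1.66 ± 0.13 higher with no overlap (adjusted p = 6.59e-16). Cyp26a1, which breaks down retinoic acid, averaged 8.34 ± 0.67 in Fisher and 6.68 ± 0.30 in Lewis (SD, n = 4 each), a difference of 1.66 ± 0.26 (adjusted p = 2.38e-06).

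Surfactant protein A, Sftpa1, read 14.07, 14.40, 14.12 and 13.90 in Fisher against 13.28, 13.44, 13.85 and 13.50 in Lewis, higher by 0.61 ± 0.13 (adjusted p = 0.00058). The related collectin Sftpd was higher by 0.86 ± 0.19 (adjusted p = 0.000674), with Fisher at 10.53, 11.47, 10.95 and 10.81 and Lewis at 9.68, 10.21, 10.21 and 10.22. Of 10 type 2 cell genes tested, 3 were higher and 1, Lpcat1, lower (-0.45), where 6.76% and 5.44% of all probes were. The transcription factor Nkx2-1, also counted among the higher, rested on Fisher a: it read 11.19, 9.55, 9.05 and 9.06 in Fisher against 7.91, 8.49, 8.26 and 9.0 in Lewis, and its difference of 1.30 ± 0.37 (adjusted p = 0.0119) was 0.80 without Fisher a (adjusted p = 0.168) and 1.13 without Lewis a (adjusted p = 0.0611). Lpcat1 was not called either when 1 array was left out: Lpcat1 without Fisher a (-0.36, adjusted p = 0.0833). Ager, the type 1 cell receptor for glycated proteins, was low in Lewis instead, with a difference of 0.76 ± 0.16 for Fisher and 0.77 ± 0.16 for Brown Norway. No other of the 11 type 1 cell genes tested was called in either pair. The list's median difference was -0.04 for Fisher minus Lewis and -0.006 for Brown Norway minus Lewis.

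The sterol synthesis list had 5 of its 10 members higher and none lower in Fisher than in Lewis, with a median difference of 0.51 against 0.01 over all probes and 6.76% of all probes called higher. Nsdhl, a sterol dehydrogenase, read 9.57, 9.62, 9.32 and 9.28 in Fisher against 8.5, 9.0, 8.57 and 8.51 in Lewis, all Fisher arrays above all Lewis arrays (0.80 ± 0.13, adjusted p = 6.7e-06). Dhcr7, the last enzyme of cholesterol synthesis, was 0.87 ± 0.22 higher, with 10.46, 10.23, 9.97 and 9.95 in Fisher and 9.30, 9.35, 9.03 and 9.44 in Lewis. The squalene enzymes Sqle (0.73) and Fdft1 (0.63) and the isomerase Idi1 (0.80) were the others. Without Fisher a and Lewis a together, 1 of the 10 was higher in Fisher. None was called between Brown Norway and Lewis, where the median was 0.23. The hypoxia and glycolysis list had 4 of 13 higher in Fisher than in Lewis and none lower, namely the mitophagy receptor Bnip3 (1.44), the vasodilator peptide adrenomedullin Adm (0.94), Ankrd37 (0.90) and Pgk1 (0.37). Bnip3 was also higher in Brown Norway than in Lewis (1.40 ± 0.27). Among these genes single left-out arrays ended the calls of Fdft1 without Fisher a or b or Lewis a (0.55 where the adjusted p was highest, at 0.0656), Idi1 without Fisher b or Lewis a (0.73 where the adjusted p was highest, at 0.0571) and Pgk1 without Fisher a or Lewis b or c (0.32 where the adjusted p was highest, at 0.0776).

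Several single genes were low in Lewis against both other strains. Plekhf2, an endosomal protein, read 10.51, 10.56, 10.54 and 10.55 in Brown Norway and 10.56, 10.71, 10.43 and 10.50 in Fisher, against 5.99, 5.10, 4.89 and 4.70 in Lewis, where Lewis a alone was above background. The fitted difference, which rests on 3 Lewis arrays below background and so has no exact size, was 5.37 ± 0.16 for Brown Norway and 5.38 ± 0.16 for Fisher, and these strains did not differ from each other by the test (adjusted p = 0.981). The ribosomal proteins Mrpl18 of mitochondria (4.06 and 4.0, Brown Norway first) and Rpl30 of the cytosol (4.06 and 3.87) shared this, as did the quinone reductase Nqo2 (2.21 and 2.24) and the pyrimidine enzyme Umps (2.21 and 2.15). Dbp, a clock output factor, was the reverse, high in Lewis, with differences of -1.49 ± 0.22 for Brown Norway minus Lewis and -1.53 ± 0.22 for Fisher minus Lewis. It was 1 of 10 circadian genes tested, of which Bhlhe40 (0.88) was the only other one called in a comparison with Lewis, a call that 1 left-out array ended: Bhlhe40 without Fisher b (0.56, adjusted p = 0.0798). Gjb2, a gap junction protein, was called lower in Brown Norway than in Lewis (-1.36 ± 0.44, adjusted p = 0.0385) but read 7.12, 6.97, 10.12 and 6.87 in Brown Norway and 11.07, 8.74, 8.47 and 8.24 in Lewis. Brown Norway c overlapped the Lewis arrays, and single left-out arrays ended the call: Gjb2 without Brown Norway a, b or d or Lewis a (-0.71 where the adjusted p was highest, at 0.419).

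Brown Norway and Fisher lungs differed in ciliated cell genes, which were mostly lower in Brown Norway, in class I genes, of which 10 of 18 were higher, in 6 chemokine and cytokine genes and the class II gene RT1-Ba, which were higher, and in single genes at or near background in one strain. Of 12 ciliated cell genes tested, 8 were lower and 1 higher in Brown Norway, with a median difference of -0.67 against 0.00 over all probes and 5.95% of all probes called lower. Tppp3, a tubulin-binding protein of cilia, read 11.27, 11.15, 11.40 and 11.31 in Brown Norway against 12.32, 12.52, 12.09 and 12.06 in Fisher, a difference of -0.96 ± 0.15 (adjusted p = 1.46e-06) with no overlap. Enkur, a protein of motile cilia, stood at 8.25, 8.37, 8.48 and 8.11 in Brown Norway against 9.03, 9.36, 9.25 and 9.16 in Fisher (-0.90 ± 0.12, adjusted p = 5.22e-08). Ccdc39, which sets the spacing of ciliary dynein arms, read 6.49, 6.43, 6.51 and 6.70 in Brown Norway against 7.05, 7.84, 7.77 and 7.54 in Fisher (-1.02 ± 0.21). The other 5 lower members ranged between -1.04 (Mlf1) and -0.55 (Cfap126), and the dynein chain Dnai1 was the member that was higher (0.46). Lewis lay between: 3 of the 12 were lower in Brown Norway than in Lewis (3.64% of all probes) and 2 were higher in Fisher than in Lewis (6.76% of all probes). Fisher a was the lowest Fisher array for this list, and without it 9 members were lower and none higher in Brown Norway than in Fisher. Single left-out arrays ended the calls of Cfap126 without Brown Norway a or b or Fisher b, c or d (-0.49 where the adjusted p was highest, at 0.0889) and Dnai1 without Brown Norway a, c or d or Fisher a or c (0.26 where the adjusted p was highest, at 0.361).

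Genes that were low in Fisher led the higher side of the same comparison. Hba-a3 was called higher in Brown Norway than in Fisher (adjusted p = 2.14e-15), Washc3 was 5.22 ± 0.18 higher, Odc1 at least 15.5-fold higher and Lcn2 3.61 ± 0.46 higher. On the lower side, Cpa4, a secreted carboxypeptidase, was below background on every Brown Norway and Lewis array and read 7.71, 8.45, 9.38 and 9.23 in Fisher, so that the signal was at least 7.86-fold lower in Brown Norway than in Fisher (adjusted p = 1.27e-10). Klkb1, plasma prekallikrein, had the same pattern, at least 4.7-fold lower in Brown Norway than in Fisher. Sec14l3, a lipid-binding protein of airway cells, read 8.12, 7.84, 8.23 and 7.99 in Brown Norway against 10.74, 10.57, 10.10 and 10.18 in Fisher, a difference of -2.35 ± 0.17 (adjusted p = 5.09e-18), and Lewis overlapped Brown Norway. The metallothionein Mt1, which binds zinc and responds to glucocorticoids, read 13.56, 13.49, 13.29 and 13.63 in Brown Norway against 11.84, 11.55, 11.55 and 11.36 in Fisher, higher by 1.92 ± 0.21 (adjusted p = 3.83e-11) without overlap. The collagen gene Col3a1 was higher by 1.13 ± 0.17, at 13.39, 13.25, 13.17 and 13.32 in Brown Norway against 12.83, 11.99, 12.03 and 11.76 in Fisher. Of 20 matrix genes the only other one called in this comparison was the collagen-binding protein Sparc, lower in Brown Norway with a difference of -0.76 and not called when 1 array was left out: Sparc without Fisher a (-0.50, adjusted p = 0.0541).

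**Figure D3:**
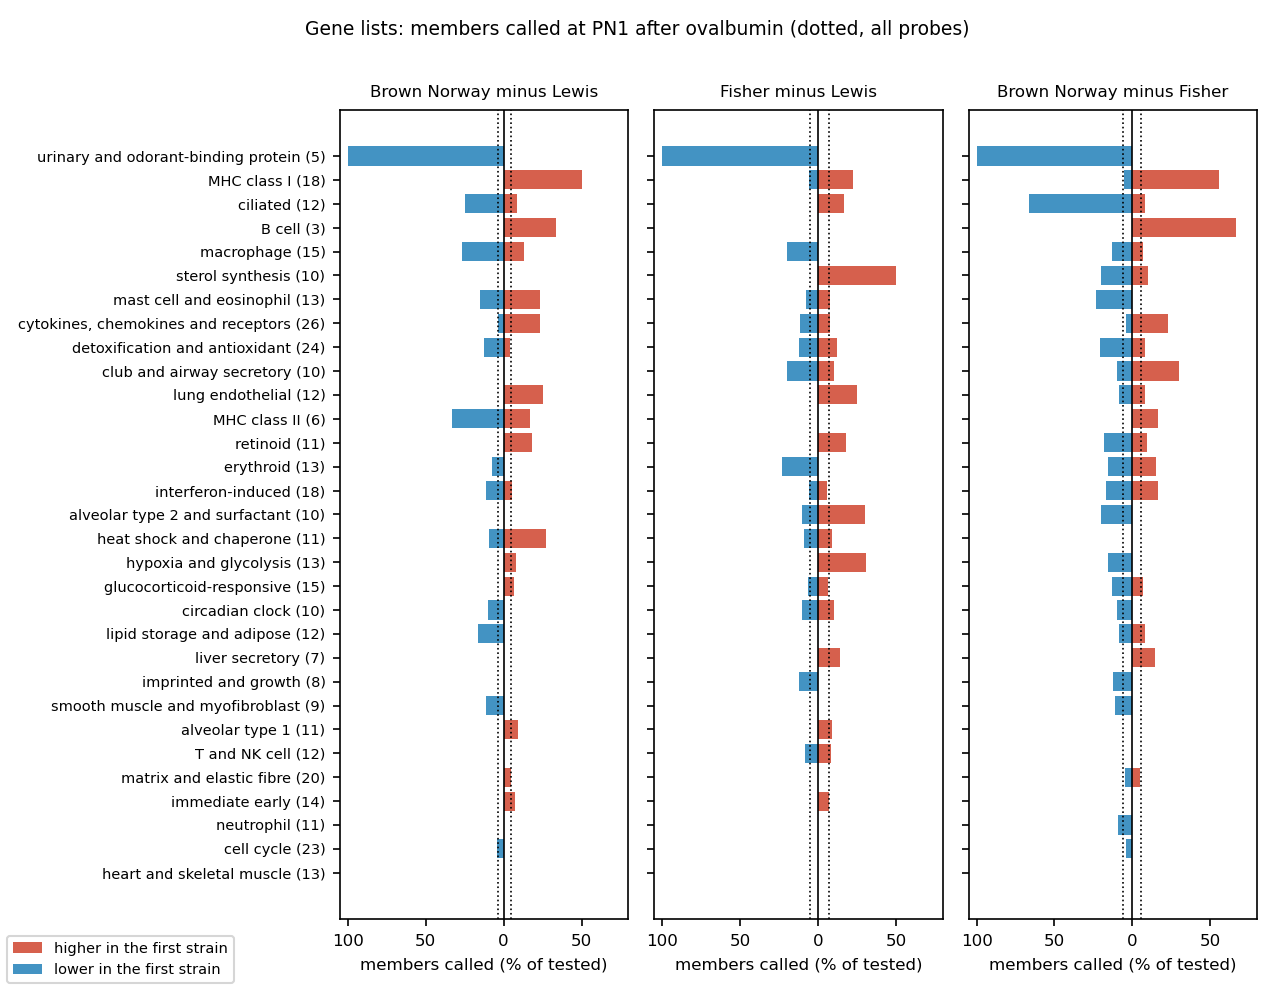
Percent of each list's tested members (horizontal axis, number tested in brackets) called higher (red, to the right) or lower (blue, to the left) in the first strain of each pair on the PN1 ovalbumin arrays. Dotted lines mark the percent of all 12270 probes called in that direction. The urinary protein list reaches 100% lower in all 3 pairs, class I genes lie beyond the dotted line on the higher side in both Brown Norway pairs, and the cell cycle and muscle lists stay near 0.

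The remaining lists gave calls for single members. In the F test over the 3 strains, 9 of 24 detoxification genes, 4 of 11 retinoid genes and 4 of 11 chaperones were called, against 18.1% of all probes. Of 23 cell cycle genes, the kinase Aurkb was the only one called, lower in Brown Norway than in Lewis (-0.61) and than in Fisher (-0.82). No heart or skeletal muscle gene of 13 was called in any pair, although the list's mean ran between 7.84 and 9.36 in Brown Norway, 7.84 and 8.93 in Fisher and 8.55 and 10.05 in Lewis, with the highest values on Lewis b and d. Smooth muscle genes gave 1 call of 9 in each comparison with Brown Norway, Synpo2, lower there. Detoxification genes, 24 tested, were called in both directions in every pair, with Gsta4 higher (1.12) and Fmo1 lower (-0.83) in Fisher than in Lewis. Retinoid genes varied member by member: the retinoic acid enzyme Aldh1a2 was low in Lewis (0.64 for Brown Norway and 0.74 for Fisher). The lipoprotein lipase Lpl (-0.94) and the fat cell receptor Pparg (-0.73) were lower in Brown Norway than in Lewis, as was the paraoxonase Pon1 (-1.65). Of 8 imprinted genes, Cdkn1c was lower in Fisher than in Lewis (-0.65) and Plagl1 lower in Brown Norway than in Fisher (-0.87). Among 11 chaperones, 3 of the endoplasmic reticulum (Pdia4, Hspa5 and Hsp90b1, 0.42 to 0.55) were higher in Brown Norway than in Lewis and Hspb1 was lower (-0.55). In this pair 4.56% of all probes were called higher and 3.64% lower. Single left-out arrays ended these calls between Brown Norway and Lewis: Aldh1a2 without Brown Norway a, b or d or Lewis a or b (0.57 where the adjusted p was highest, at 0.115), Pparg without Brown Norway c or Lewis c (-0.56 where the adjusted p was highest, at 0.0979) and Hsp90b1 without Brown Norway a or d or Lewis a or d (0.38 where the adjusted p was highest, at 0.0954). Between Fisher and Lewis they ended Aldh1a2 without Fisher a (0.56, adjusted p = 0.0817) and Cdkn1c without Lewis b (-0.48, adjusted p = 0.0715), and between Brown Norway and Fisher Plagl1 without Fisher a (-0.59, adjusted p = 0.058).

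The saline arrays of the same age show which of these strain differences went with the exposure. The difference between 2 strains was not the same after ovalbumin as after saline at 1500 probes (12.2%; 6.62% more positive, 5.61% more negative) for Brown Norway against Lewis, at 740 (6.03%; 3.09% more positive, 2.94% more negative) for Fisher against Lewis and at 2829 (23.1%; 11.6% more positive, 11.5% more negative) for Brown Norway against Fisher. A fit that held slide fixed gave 1440 for Fisher against Lewis. Each of these contrasts takes the saline strain difference from the ovalbumin one. Replicates a and b of both exposures shared a slide. Saline replicates c and d of all strains were on the slide of Lewis ovalbumin c. Brown Norway and Fisher ovalbumin c and d and Lewis ovalbumin d were on another, so exposure and slide cannot be told apart for those replicates. The count for Brown Norway against Lewis was 920 without Brown Norway saline c. That for Fisher against Lewis was 379 without Lewis ovalbumin a, 433 without Fisher ovalbumin a, 315 without Lewis saline c, 422 without Lewis saline d, 1132 without Lewis saline a and 1118 without Lewis saline b, while that for Brown Norway against Fisher stayed between 2333 and 3007 whichever of the arrays was left out. Fewer probes were called between strains after ovalbumin than after saline in each pair: 1007 against 3608 (29.4%) between Brown Norway and Lewis, 1497 against 2471 (20.1%) between Fisher and Lewis, and 1385 against 4237 (34.5%) between Brown Norway and Fisher. These counts themselves were not compared by a test.

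Cell cycle genes changed together where Fisher was compared. The 23 genes averaged between 8.32 and 9.28 on the Brown Norway ovalbumin arrays against 8.27 to 8.36 on its saline arrays. In Fisher they averaged 8.66 to 9.23 after ovalbumin against 9.95 to 10.4 after saline, with every saline array above every ovalbumin array. In Lewis the ranges were 8.47 to 9.86 after ovalbumin and 8.5 to 8.82 after saline, and overlapped. Brown Norway minus Fisher was accordingly more positive after ovalbumin for 21 of 23 members, against 11.6% of all probes, and less positive for none, with a median change of 2.00 against -0.02 over all probes. Fisher minus Lewis was more negative for 14 members, against 2.94% of all probes, with a median of -2.18 against 0.02, and Brown Norway minus Lewis changed for 1. Cdc20, which activates the anaphase-promoting complex, averaged 8.78 ± 0.43 in Brown Norway, 8.39 ± 0.52 in Fisher and 9.20 ± 0.51 in Lewis after ovalbumin (SD, n = 4 each), against 8.47, 10.27 and 8.40 after saline in the same order. Its Fisher minus Lewis difference changed by -2.69 ± 0.41 (adjusted p = 1.65e-05). The ubiquitin enzyme Ube2c of mitotic exit changed by -2.77 ± 0.35 (adjusted p = 6.21e-07), the spindle checkpoint kinase Bub1b by -3.10 ± 0.52 (adjusted p = 9.59e-05) and the mitotic cyclin Ccnb2 by -2.99 ± 0.45. DNA replication genes took part in Brown Norway minus Fisher, with Mcm3 at 2.26, Rrm2 at 2.6 and Pcna at 0.91.

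**Figure D4:**
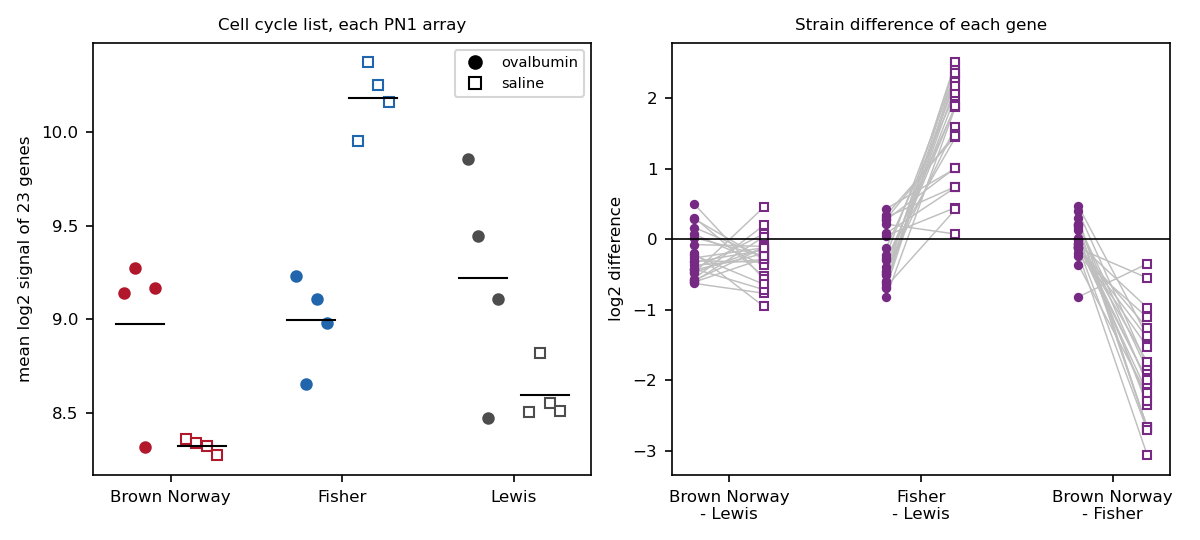
Left, mean log2 signal of the 23 cell cycle genes on each PN1 array (filled, ovalbumin; open, saline; line, group mean). Right, the log2 strain difference of each gene after ovalbumin (filled, left) and after saline (open, right) for the 3 pairs, joined by a line. The 4 Fisher saline arrays lie between 9.95 and 10.4, above every other array, and the strain differences that involve Fisher lie near 0 after ovalbumin.

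The 250 bases before the start site of 2 of these genes are shown from RefSeq (build GRCr8). They are Cdc20 at chr5:137255800-137256049 and Ccnb2 at chr8:79981659-79981908, both on the minus strand. Both were picked for lowest adjusted p (change in Brown Norway minus Fisher) among called members that hold both motifs named next. Their matches therefore follow from the choice and do not describe the other members. Capitals mark the letters TTTGAA, the cell cycle genes homology region, and CCAAT, the box bound by NF-Y, searched on both strands.
Cdc20: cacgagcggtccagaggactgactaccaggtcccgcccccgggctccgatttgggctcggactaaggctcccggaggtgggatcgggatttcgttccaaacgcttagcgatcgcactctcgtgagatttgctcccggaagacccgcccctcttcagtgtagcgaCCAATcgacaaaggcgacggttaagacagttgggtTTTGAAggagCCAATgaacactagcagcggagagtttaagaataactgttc
Ccnb2: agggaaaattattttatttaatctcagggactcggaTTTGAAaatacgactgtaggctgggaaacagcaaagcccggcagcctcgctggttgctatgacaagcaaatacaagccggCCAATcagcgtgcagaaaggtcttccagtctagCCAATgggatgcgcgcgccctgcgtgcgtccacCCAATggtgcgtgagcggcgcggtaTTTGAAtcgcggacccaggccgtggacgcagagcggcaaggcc
Of the 23 cell cycle genes tested, 17 had a promoter in the RefSeq table; 12 of these held CCAAT, 4 held TTTGAA and 3 held both. Among all 33469 promoters of the table the shares were 34.0% for CCAAT, 16.2% for TTTGAA and 5.87% for both. A match is a description of the letters and not of a bound site.

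Mmp12 and Ccl12 were highest in Brown Norway after ovalbumin but not after saline, and their Brown Norway differences changed with exposure. Mmp12 averaged 8.05 ± 0.08 in Brown Norway, 5.46 ± 0.47 in Fisher and 5.40 ± 1.38 in Lewis after ovalbumin (SD, n = 4 each), against 4.85, 5.43 and 4.83 after saline. After saline it was above background on no Brown Norway, 1 Fisher and no Lewis array, so the fitted changes that follow have no exact size. Its Brown Norway difference changed with exposure by 2.63 ± 0.45 from Lewis (adjusted p = 6.93e-05) and by 3.18 ± 0.45 from Fisher (adjusted p = 6.97e-07). Ccl12 changed by 2.30 ± 0.49 (adjusted p = 0.000884) and 2.91 ± 0.49 (adjusted p = 1.15e-05) in the same order. Its saline means were 4.70 in Brown Norway, where no array was above background, 5.86 in Fisher and 5.63 in Lewis. The wider cytokine list had 10 of 26 members more positive and 2 more negative in Brown Norway minus Fisher, where 11.6% and 11.5% of all probes were, with a median of 0.70, among them Ccl20 (1.99), Ccl3 (1.56) and Il33 (0.99). The Mmp12 promoter (GRCr8, chr8:12866402-12866651, plus strand) is given because among the 15 macrophage genes this one had the greatest fitted change in both Brown Norway comparisons. Capitals mark TGAGTCA, the site of AP-1 factors, which 4.05% of all promoters in the table hold on either strand.
Mmp12: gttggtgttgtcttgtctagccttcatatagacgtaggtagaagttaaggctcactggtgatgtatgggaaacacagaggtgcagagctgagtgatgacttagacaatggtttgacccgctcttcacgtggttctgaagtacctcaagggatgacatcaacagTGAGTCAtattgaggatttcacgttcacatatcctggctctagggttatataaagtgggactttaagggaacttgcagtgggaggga
Of the class II genes, 4 of 6 were more positive in Brown Norway minus Fisher after ovalbumin, RT1-Ba by 1.51 ± 0.34 (adjusted p = 0.000611).

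Of 20 matrix genes tested, 7 were more positive and none more negative in Brown Norway minus Lewis (median 0.58; 6.62% of all probes were more positive), and 8 and none in Brown Norway minus Fisher (median 0.45; 11.6% of all probes). Without Brown Norway saline c, 2 were more positive in Brown Norway minus Lewis, and a call named next ended: Mfap4 without Brown Norway saline c (0.93, adjusted p = 0.0949). Mfap4, a microfibril protein, changed by 1.24 and 1.83, and Fbln5, an elastic fibre organiser, by 1.17 and 1.18. Elastin itself was not called (0.15, adjusted p = 0.811, and -0.66, adjusted p = 0.0967). Of 10 clock genes, 8 were more negative in Brown Norway minus Fisher (median -0.99; 11.5% of all probes), led by Per1 (-2.01 ± 0.56) and Nr1d1 (-1.83, a call lost for Nr1d1 without Fisher ovalbumin b (-1.47, adjusted p = 0.0666)), and 3 in Brown Norway minus Lewis. Of 15 glucocorticoid-responsive genes, 5 were more negative and 2 more positive in Brown Norway minus Lewis (median -1.05; 5.61% and 6.62% of all probes), among them Klf9 (-1.98) and Ddit4 (-2.15). Without Lewis saline d, 2 were more negative. The glucocorticoid list averaged 9.86 to 10.19 after ovalbumin and 10.49 to 10.95 after saline in Brown Norway, and 9.9 to 10.18 and 10.03 to 10.4 in Lewis. The clock list averaged 7.86 to 8.14 after ovalbumin and 8.61 to 9.0 after saline in Brown Norway, and 8.03 to 8.51 and 7.75 to 8.26 in Fisher. After ovalbumin itself, 1 of the 10 clock genes was called between Brown Norway and Fisher, lower in Brown Norway. Of 24 detoxification genes, 14 were more negative and 2 more positive in Brown Norway minus Fisher (median -0.62; 11.5% and 11.6% of all probes), including the quinone reductase Nqo1 (-1.93) and the flavin monooxygenase Fmo2 (-2.41).

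In Fisher minus Lewis, the urinary protein genes changed with exposure. Mup5 averaged 8.43 ± 0.36 in Fisher and 10.26 ± 0.60 in Lewis after ovalbumin (SD, n = 4 each), against 6.24 and 10.30 after saline, a change of 2.24 ± 0.58 in the strain difference (adjusted p = 0.0133). In all, 4 of the 5 members changed in this direction, where 3.09% of all probes did. For 1 of them the call ended with single left-out arrays, Mup4l3 without Fisher ovalbumin b, Fisher saline b or Lewis ovalbumin a or b (1.01 where the adjusted p was highest, at 0.0905). Without Fisher a and Lewis a together, Mup5 changed by 2.17 (adjusted p = 0.057). Cpa4 was higher in Fisher after ovalbumin (8.69 ± 0.77, SD, n = 4) than after saline (6.33) and lower in Brown Norway (5.02 ± 0.36 against 7.19), so that Brown Norway minus Fisher changed by -4.53 ± 0.57 (adjusted p = 6.08e-08), a fitted value that rests in Brown Norway on signal below background after ovalbumin. Cd3g and Cd3d, chains of the T cell receptor complex, gave changes of -3.15 and -3.03 in Fisher minus Lewis (Lewis saline arrays were all below background for Cd3d) that rested partly on Lewis a: without it they were -1.64 (adjusted p = 0.00869) and -1.36 (adjusted p = 0.0974). Other left-out arrays ended the Cd3d call too: Cd3d without Fisher ovalbumin a, Fisher saline a, Lewis ovalbumin a or Lewis saline c (-1.36 where the adjusted p was highest, at 0.0974). The liver genes Alb and Ahsg, each below background on all arrays of 1 or more of the groups involved, changed (fitted values 5.29 and 4.07) in Brown Norway minus Fisher beside Fisher saline a, whose liver list mean was 12.3 against 7.88 to 8.70 on the other PN1 saline arrays, and without that array none of the 7 liver genes was more positive. In Brown Norway the liver list averaged 8.21 to 9.28 after ovalbumin and 8.07 to 8.30 after saline. Calls ended for Alb without Fisher saline a (3.55, adjusted p = 0.0661) and Ahsg without Brown Norway ovalbumin c or Fisher saline a (2.44 where the adjusted p was highest, at 0.165).

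Some of the strain differences, and most of the large ones, were called the same way at other ages and after saline. Of 1007 probes called between Brown Norway and Lewis, 312 (31%) were called the same way in PN1 saline, PN7 ovalbumin and PN14 ovalbumin lungs, and of the 83 with a difference of 2 or more, 69 (83.1%) were. The PN7 ovalbumin arrays had 42.2% of all probes called between Brown Norway and Lewis, 43.8% between Fisher and Lewis and 32% between Brown Norway and Fisher, and the PN14 arrays 6.13%, 3.83% and 6.81% in the same order. The PN7 ovalbumin arrays of Brown Norway and Fisher shared no slide, so strain and slide cannot be told apart there. Each of these strains shared a slide with only some of the Lewis PN7 arrays. For Fisher against Lewis the counts were 261 of 1497 and 52 of 56, and for Brown Norway against Fisher 308 of 1385 and 57 of 68. Against PN14 alone, 460 probes were called the same way between Brown Norway and Lewis, which is 45.7% of the PN1 calls and 61.2% of the 752 PN14 calls. For Fisher against Lewis 23.4% of the PN1 calls were, and for Brown Norway against Fisher 38.3%. In PN1 saline lungs some called probes were called the opposite way. These were 53 (588 the same way) for Brown Norway against Lewis, 26 (620) for Fisher against Lewis and 145 (586) for Brown Norway against Fisher. RT1-CE16 was above background on all 4 Brown Norway and no Lewis ovalbumin arrays on each of days 1, 7 and 14. Plekhf2 was above background on all Brown Norway arrays on those days, but on 1, 0 and 0 of the Lewis arrays. Hba-a3 was above background on 1, 0 and 0 of the Fisher arrays and on all Lewis arrays. Among genes detected on all these arrays, Cavin2 differed between Brown Norway and Lewis by 3.09 on day 1, 3.12 on day 7 and 2.73 on day 14. For Fisher minus Lewis, Nos3 differed by 2.0, 1.96 and 1.74 on the same days.

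**Figure D5:**
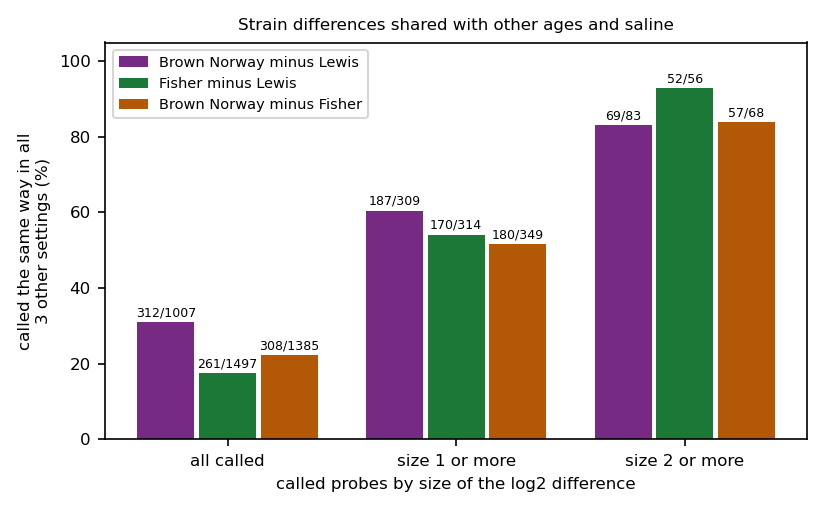
Percent (vertical axis) of the probes called between 2 strains on PN1 ovalbumin arrays that were called the same way in PN1 saline, PN7 ovalbumin and PN14 ovalbumin lungs, for all called probes and for those with a log2 difference of 1 or 2 and more. Fractions give the counts, and the share is 17.4% to 31% for all called probes and 83.1% to 92.9% for the largest.

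Some strain differences changed with age. The strain differences on PN1 ovalbumin arrays departed from those on PN14 ovalbumin arrays at 1% of probes in an F test, and at 81 probes without Fisher b. The urinary protein genes were foremost: Obp3 (adjusted p = 2.23e-09), Mup4l3 (adjusted p = 6.43e-09) and Mup4l4 (adjusted p = 1.8e-08). Mup4l3 was above background on no Brown Norway array on days 1, 7 and 14, and on 4, 3 and 0 of the Lewis arrays on those days. The carboxylesterase Ces1e differed by -4.70 between Fisher and Lewis on day 1, -1.78 on day 7 and -0.27 on day 14, where no Fisher and 1 Lewis array was above background (adjusted p = 7.36e-08). On day 1 it was above background on 1 Fisher array, so these fitted sizes are not exact. Other differences were larger on day 14. Mcpt1, a mast cell protease, differed by 0.14 between Brown Norway and Lewis on day 1 and by 2.49 on day 14 (adjusted p = 8.16e-09). The proteoglycan Spock1 was above background on all Brown Norway and no Lewis arrays on both days, with fitted differences of 1.27 and 3.25 that have no exact size (adjusted p = 1.23e-08).

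Probes higher in Brown Norway than in Lewis on day 1 were often ones that read higher in day 7 than in day 1 saline lungs. Of the 560 higher probes, 48.4% rose between day 1 and day 7 in saline lungs averaged over the strains, against 26.5% of all probes tested. Of the 447 lower probes, 192 fell over the same days, against 25.1% of all probes. Fisher against Lewis had 35.5% of its higher probes rising and 29.2% of its lower probes falling. In Brown Norway against Fisher, 39.4% of the higher probes rose and 299 of the 730 lower probes fell. The saline arrays behind the age step are not among the 12 ovalbumin arrays, and these shares are descriptions with no test. The day 1 and day 7 saline arrays shared no slide, so age and slide cannot be told apart in this step.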

How the data were processed

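The authors deposited a table of intensity per probe and array that was not normalized, with a detection p-value for each per the file headers, and log2 values that equal the quantile-normalized log2 intensity without background correction (largest difference 5e-05). The submitters' processing notes name lumi. Whole-lung RNA was labelled with biotin per the labels. The genome build behind the probes is not given in the sources used here. From the intensities, log2 signal was computed with neqc of limma 3.58.1 in R 4.3.3 (background from the detection p-values, offset 16). One model with 18 groups over 71 arrays, with a trended empirical Bayes prior, gave all contrasts, and p-values were adjusted by Benjamini-Hochberg over 12270 probes. Of 22523 probes, 13793 carry 1 gene symbol in the platform annotation and 8730 none, and the brightest probe stood for a gene. The columns for bead standard error and bead count (2 kinds per array) were not used.

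Genes were named by rule: the 10 largest differences each way per pair, the leading genes of each strain pattern and of the exposure and age differences, and up to 4 members per list. Any other list member given with a value was chosen after its values were seen. The members and the 31 gene lists were chosen with earlier results of these data known. A probe below background on every array of a strain has a bound: "at least" folds compare the brighter strain's mean with the higher of the dim signal and the lowest detected signal of each array. Arrays were not paired by replicate letter in the model. Correlations of deviations between arrays of the same letter ran from -0.16 to 0.24. For Brown Norway and Lewis they were 0.14, -0.08, 0.24 and 0.23 for a to d. On simulated data for Brown Norway against Lewis over 12270 probes, 53 of 100 probes changed 1.5-fold and 90 of 100 changed 2-fold were recovered, with 6 unchanged probes called. The simulated noise was normal and independent, with the same spread for a probe in every group. It held no stray arrays such as Lewis a, so these rates need not hold for the real arrays. Alternatives covered background correction, detection filters, slide, replicate block and left-out arrays. The number of arrays limits the precision.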

Additional observations from a re-analysis of the deposited data

Results flagged for a closer look

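In the 4 arrays of a strain, a single array stood far from the other 3 in 23 of 318 gene and strain groups (7.23%), where chance alone flags about 1 in 20. Lewis a was that array in 10 groups, at 9.82 for RT1-A3, 8.12 for Mrpl18, 7.46 for Mmp12, 10.23 for Spp1, 8.36 for Dbp, 12.12 for Rag1, 10.38 for Timp1, 9.68 for Sftpd, 6.32 for Blnk and 13.20 for Cd3g. Fisher a stood apart at 6.71 for RT1-A2, 7.19 for Pxmp4 and 9.49 for Cavin2, and Fisher b at 6.19 for Obp3, 6.32 for Tpcn2 and 6.04 for the heparanase Hpse. The others were Lewis c at 12.07 for Col3a1, 9.71 for Odc1 and 7.65 for Esm1, Lewis b at 9.0 for Nsdhl, Brown Norway b at 11.08 for Ly6i, and Brown Norway c at 10.12 for Gjb2 and 6.54 for Bub1b.

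Strain differences that changed with exposure by the test of the difference itself made up 12.2% of probes for Brown Norway minus Lewis, 6.03% for Fisher minus Lewis and 23.1% for Brown Norway minus Fisher, and 1% changed between day 1 and day 14. For Brown Norway minus Lewis, values were 2.63 for Mmp12, 2.30 for Ccl12, 2.22 for the mesodermal factor Meox2, 2.33 for the Ets factor Etv4 and 3.05 for the muscle carbonic anhydrase Car3. On the negative side they were -3.52 for the homocysteine enzyme Cbs, -3.18 for the neuropeptide Gal, -3.13 for Trim54, -2.92 for Pcdh20 and -2.77 for Cd3g, which was -1.26 without Lewis ovalbumin a. The Car3 call ended without any 1 of 7 arrays, at 2.23 and adjusted p = 0.122 without Lewis saline c. Fisher minus Lewis changed by 3.27 for Cpa4, 2.24 for Mup5, 2.71 for Nkx2-1, 2.37 for the lubricin gene Prg4 and 2.61 for Dlk1, and by -3.16 for the spindle protein Knstrn, -3.10 for Bub1b, -3.0 for Nusap1, -3.15 for Cd3g and -3.03 for Cd3d. For Dlk1 the call ended without any 1 of 12 arrays, at 2.37 and adjusted p = 0.106 without Lewis ovalbumin a and 2.54 and adjusted p = 0.0898 without Fisher ovalbumin a. The Fisher minus Lewis change for Cd3g was -1.64 and that for Cd3d -1.36 (adjusted p = 0.0974) without Lewis ovalbumin a. Brown Norway minus Fisher changed by 3.18 for Mmp12, 3.17 for Pclaf, 3.75 for the mitotic kinase Pbk, 4.07 for Ahsg and 5.29 for Alb, and by -4.53 for Cpa4, -3.70 for Esm1, -4.27 for Cbs, -4.09 for Trim54 and -3.94 for Mlc1. The Alb and Ahsg calls ended without Fisher saline a, at 3.55 and 2.44. Mmp12, Ccl12, Pcdh20, Cpa4, Cd3d, Alb and Ahsg were below background on all arrays of 1 or more of the strains and exposures involved, so their fitted changes have no exact size. The genes whose strain differences changed with age had adjusted p-values of 6.43e-09 for Mup4l3, 1.8e-08 for Mup4l4, 2.23e-09 for Obp3, 7.36e-08 for Ces1e, 8.16e-09 for Mcpt1 and 1.23e-08 for Spock1 (limma F test).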

How the results depend on the processing

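Leaving out each PN1 array in turn gave 787 to 1047 calls for Brown Norway minus Lewis, 1048 to 1616 for Fisher minus Lewis, 1064 to 1453 for Brown Norway minus Fisher and 1838 to 2352 in the F test. For the exposure differences the ranges were 920 to 1726 (Brown Norway minus Lewis), 315 to 1132 (Fisher minus Lewis) and 2333 to 3007 (Brown Norway minus Fisher), and for the age difference 81 to 156. With only the arrays of the slide of replicates a and b, Brown Norway minus Lewis gave 442 calls. With only those of the slide with 1 Lewis array, the counts were 273 for Brown Norway minus Lewis, 234 for Fisher minus Lewis, 530 for Brown Norway minus Fisher and 617 in the F test; these fits hold fewer arrays. Without Fisher a and Lewis a together, chosen after seeing the data, Fisher minus Lewis gave 839 calls and its exposure difference 209. That exposure difference gave 1440 with slide as a fixed term. An earlier look at these data had doubted 4 arrays, namely replicate a of PN1 ovalbumin Lewis and of PN1 saline Fisher, replicate d of PN7 saline Lewis and replicate c of PN7 saline Fisher. Without them it gave 463, and the strain pairs gave 974, 1211 and 1522 calls in the order above. The age difference gave 262 calls in a fit of the 24 PN1 and PN14 ovalbumin arrays alone. The causes of these shifts were not tested. With a replicate block, the 3 strain pairs gave 1012, 1499 and 1370 calls and the F test 2235, and the block moved no count over 1.5 times. Without background correction, which equals the deposited values, counts were 1004, 1523 and 1365. At an adjusted p under 0.01 in place of 0.05, Brown Norway stood above both other strains at 1.32% of probes, Fisher at 0.986% and Lewis at 0.546%. Fisher led at 0.05 (2.09% against 1.65% for Brown Norway), so the order of these strains depends on the threshold. Of 598 gene and comparison pairs (named genes and all called list members), 328 kept their direction and call under every setting run and the others lost the call under 1 or more. Gjb2 alone had the other sign under a setting, at 0.26 for Brown Norway minus Lewis (adjusted p = 0.994) on the slide with 1 Lewis array, a fit with a lone Lewis array that does not settle its direction. Detection limits genes near background to bounds, and 4 arrays per strain limit the small differences.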
